A study of Mus musculus with 25 samples.

Results

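Deletion of Ptpn6 was examined in bone marrow neutrophils that already lacked both Ripk3 and Mlkl. Of the 25 libraries in the series, 5 entered the comparison. There were 3 libraries labelled Ripk3-/- Mlkl-/- Ptpn6∆PMN (deleted, replicates 1, 2 and 3) and 2 labelled Ripk3-/- Mlkl-/- (control, replicates 2 and 3), and members were taken by these labels alone. All came from female C57BL/6J mice aged 6 to 13 weeks that were labelled as not inflamed. Both groups carry the germline Ripk3 and Mlkl knockouts. The mark ∆PMN stands for deletion in neutrophils, also called polymorphonuclear cells, and the Cre driver is not given in the sources used here. Neither group is a Cre control with an intact Ptpn6 gene, so an effect of Cre or of DNA carried with the deletion cannot be told apart from loss of Ptpn6. Age within the stated range is not given per library, and nothing in the labels says that replicates were separate animals, so p-values measure the spread between libraries. In the main fit that spread was estimated over 23 libraries of 9 groups and not over the 5 compared libraries alone. Another library bears a title of Ripk3-/- Mlkl-/- and a genotype label of Mlkl-/- Ptpn6∆PMN. It was left out of the main comparison, and its values are given where they touch a result as those of the library with conflicting labels.

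Ptpn6 encodes SHP-1, a cytosolic tyrosine phosphatase that binds phosphorylated inhibitory motifs (ITIMs) of receptors through its SH2 domains and dampens signalling downstream of Src-family and Syk kinases. Ripk3 is the kinase that phosphorylates Mlkl, and phosphorylated Mlkl permeabilises the plasma membrane in necroptosis, a lytic and inflammatory form of cell death. Caspase-8 holds this pathway in check and can itself drive apoptosis and cytokine processing, so neutrophils without Ripk3 and Mlkl still have the caspase-8 branch. The comparison asks what Ptpn6 deletion leaves in the neutrophil transcriptome when the Ripk3 and Mlkl branch is missing.

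Totals in the 5 libraries lay between 22204980 and 22616927 estimated counts. All 14 genes of a neutrophil identity list were measured, and their mean level was 11.20, 11.56 and 12.05 log2 CPM (CPM are counts scaled to a common library size, with TMM correction for composition) in the deleted libraries and 11.84 and 11.34 in the control libraries. The label of neutrophils therefore held by these markers in every library, and the groups overlapped. On the first principal component of the 5 libraries and the one with conflicting labels, which held 28.9% of the variance, deleted replicate 3 lay at 37.62 and the other deleted replicates at -19.87 and -21.28. The control libraries split as well, at -13.38 (replicate 2) and 20.55 (replicate 3), and on the second component (25.4%) control replicate 3 lay at -38.18 and control replicate 2 at -8.40. Deleted replicate 3 and control replicate 3 thus each stood apart from the rest of their groups. In bulk libraries, fewer cells of a type and less RNA per cell cannot be told apart.

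The targeted genes followed the labels. Ptpn6 stood at 255, 314 and 309 CPM in the deleted libraries and at 631 and 551 CPM in the control libraries. No deleted library reached a control library. The log2 change was -1.01 (SE 0.17), and edgeR gave an adjusted p of 0.0838 (quasi-likelihood F test, Benjamini-Hochberg over all genes), so Ptpn6 itself did not pass the threshold of 0.05. The table has 1 value per gene, so any reads from a part of Ptpn6 that the deletion leaves in place are included. The library with conflicting labels had 582 CPM of Ptpn6, within the range of the control libraries and not of the deleted ones. Ripk3 had 1, 2 and 0 counts in the deleted and 1 and 1 in the control libraries, and 2 in the library with conflicting labels, against 204 to 267 in wild type. Mlkl, at 0.230, 0.940 and 0.682 CPM with deletion and 0.604 and 0.850 CPM without, was low in both groups. Casp8, which neither group lacks, was at 34.9, 31.4 and 30.7 CPM with deletion and 29.7 and 33.5 CPM without, and the groups overlapped.

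Ap1s1 was the 1 gene that passed, of 16206 tested (0.00617%). It encodes the small sigma subunit of the AP-1 adaptor, which sorts cargo into clathrin-coated vesicles at the trans-Golgi network and endosomes, and lies at chr5:137034993-137046108 (GRCm38.p6). Its level was 69.1, 84.7 and 109 CPM in the deleted libraries and 9.95 and 8.16 CPM in the control libraries. Every deleted library lay several-fold above both control libraries. Ap1s1 rose by 3.28 on the log2 scale (SE 0.29), and edgeR's adjusted p was 1.3e-05. The library with conflicting labels had 12.3 CPM, on the side of the control libraries. The call was made in every setting run, including the fit of only these 5 libraries (edgeR adjusted p = 0.0432).

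No other component of the AP-1 clathrin coat passed. Of the 18 genes of the AP-1 clathrin adaptor list, 10 lay above 0 (54.1% of all genes did), and their median log2 change was 0.05 against 0.03 over all genes tested. Ap1s3, another sigma subunit, was at 30.6, 22.9 and 24.9 CPM with deletion and 21.3 and 19.5 CPM without (log2 change 0.36, SE 0.15, edgeR unadjusted p = 0.031). The remaining sigma subunit, Ap1s2, had a log2 change of -0.12 (SE 0.16). The gamma subunit Ap1g1 (-0.02), the mu subunit Ap1m1 (-0.07) and clathrin heavy chain Cltc (-0.07) had log2 changes close to 0.

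**Figure D1:**
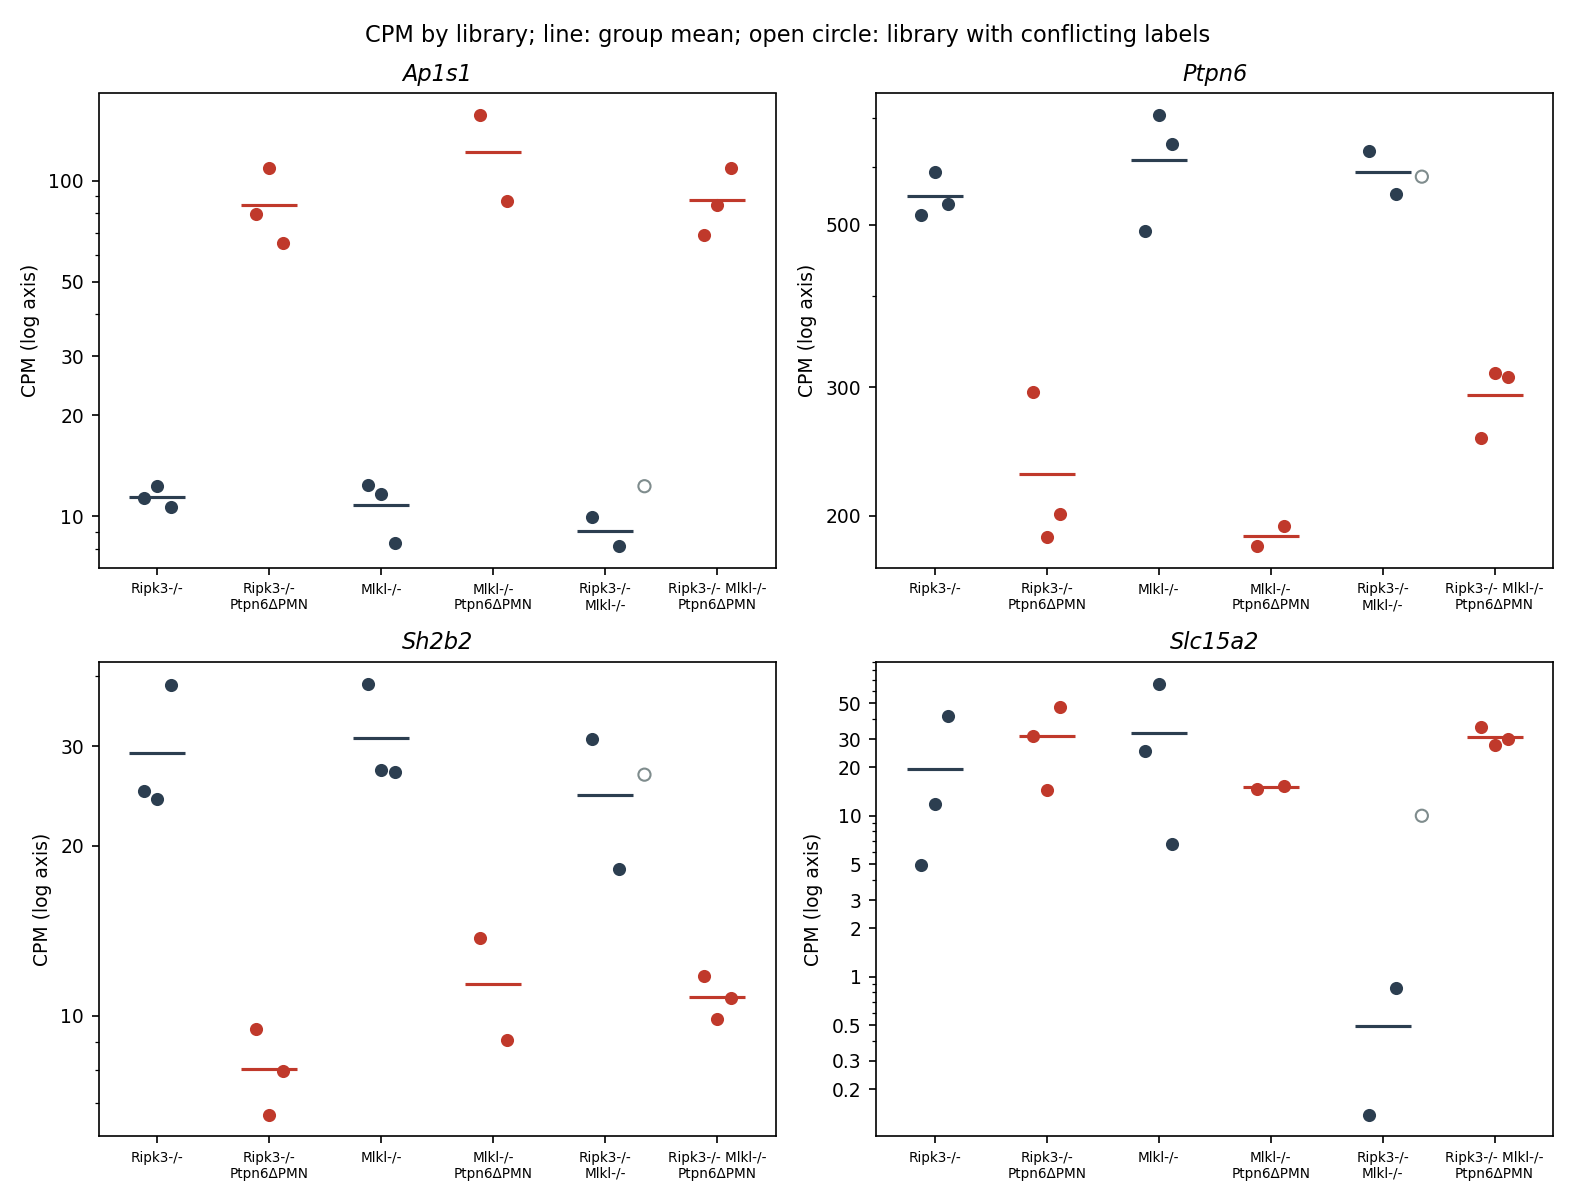
CPM on a log axis in each library for Ap1s1, Ptpn6, Sh2b2 and Slc15a2, with and without Ptpn6 deletion, in the Ripk3-/- Mlkl-/-, Ripk3-/- and Mlkl-/- backgrounds; each point is 1 library, lines are group means, and the open circle is the library with conflicting labels. Without Ripk3 and Mlkl, Ap1s1 lay between 69.1 and 109 CPM with deletion and at 9.95 and 8.16 CPM without it.

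Below Ap1s1, 3 further genes were called in at least 1 other setting without leaving out a library, Ptpn6, Sh2b2 and Slc15a2. Sh2b2 encodes an SH2-domain adaptor of receptor tyrosine kinases and lies at chr5:136218147-136246595, 788.4 kb from Ap1s1. It stood at 11.8, 9.85 and 10.8 CPM with deletion and at 31.0 and 18.2 CPM without. The groups did not overlap, and the control libraries differed from each other more than the deleted ones did. The log2 change was -1.19 (SE 0.25, edgeR adjusted p = 0.507, DESeq2 adjusted p = 0.0284), beside -1.86 in Ripk3-/- and -1.45 in Mlkl-/-. The library with conflicting labels had 26.7 CPM of Sh2b2.

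Slc15a2 encodes a proton-coupled peptide transporter. It was at 35.4, 27.5 and 29.8 CPM in the deleted libraries and at 0.139 and 0.850 CPM in the control libraries, a log2 change of 5.92 with an SE of 1.21. The adjusted p was 0.507 by edgeR and 9.17e-06 by DESeq2. The wide gap came from the control side. All 19 assigned libraries outside the comparison lay between 3.80 and 66.3 CPM, and the library with conflicting labels had 10.0 CPM. Wild type ranged from 3.80 to 16.8 CPM, Ripk3-/- from 4.92 to 42.0 CPM and Mlkl-/- from 6.64 to 66.3 CPM. Slc15a2 therefore varied several-fold among libraries of 1 genotype, and with the library with conflicting labels counted as a control the log2 change was 3.07 (edgeR adjusted p = 0.804).

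Because Ap1s1 and Sh2b2 share a stretch of chromosome 5 and Ptpn6 lies on chromosome 6, the genes around each were tallied. Over all genes tested, 5.12% had an unadjusted p under 0.05 and in 13.4% the groups did not overlap. Within 1 Mb of Ap1s1, 3 of 50 tested genes (6%) had an unadjusted p under 0.05 and 9 (18%) did not overlap between groups, Sh2b2 among them. Plod3, a collagen lysyl hydroxylase gene 38.4 kb away, had a log2 change of -0.18 (SE 0.16). Within 10 Mb of Ap1s1 the share under 0.05 was 3.39% of 236 genes.

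Within 1 Mb of Ptpn6, at chr6:124720707-124738709, 5 of 45 tested genes (11.1%) had an unadjusted p under 0.05 and 7 (15.6%) did not overlap. Grcc10, 0.474 kb from Ptpn6, was at 45.6, 52.7 and 51.1 CPM with deletion and 39.8 and 38.9 CPM without (log2 change 0.34, SE 0.15). Phb2, a prohibitin gene 3.76 kb away, had a log2 change of 0.24 (SE 0.14), and Atn1, 3.83 kb away, one of -0.05 (SE 0.17). The other genes of the window under 0.05 were the macrophage scavenger receptor Cd163, the deubiquitinase Usp5, the TNF receptor Tnfrsf1a and a long noncoding RNA. Within 10 Mb of Ptpn6 the share under 0.05 was 7.46% of 201 genes. None of these neighbours passed the adjusted threshold.

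**Figure D2:**
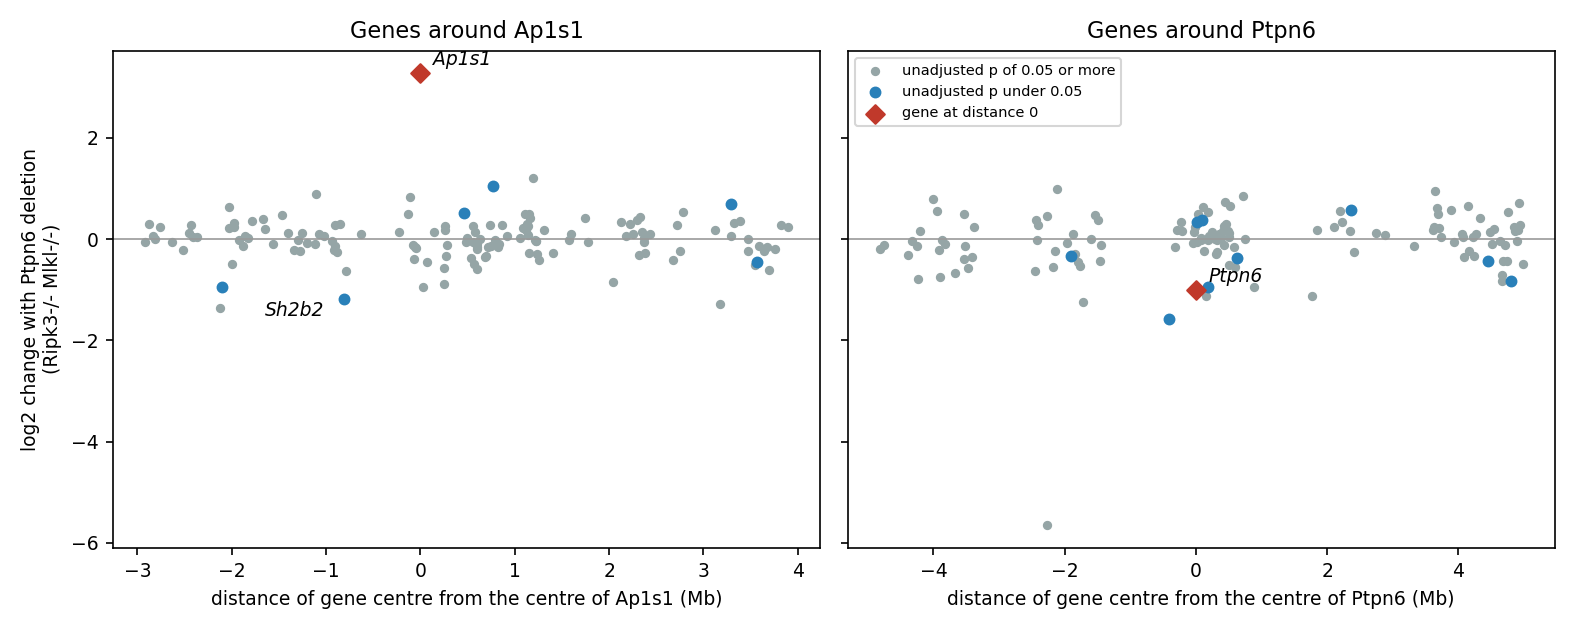
Log2 change with Ptpn6 deletion of each tested gene against its distance in Mb from Ap1s1 (left) and from Ptpn6 (right); points are genes, blue where the unadjusted p was under 0.05. Ap1s1 stands at 3.28 and Sh2b2 at -1.19, and 6% and 11.1% of the genes within 1 Mb of Ap1s1 and of Ptpn6 were under 0.05.

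Over all 16206 genes, 374 (2.31%) lay higher and 456 (2.81%) lower at an unadjusted p under 0.05, and the median log2 change was 0.03. Among genes with a mean of at least 5 CPM in the higher group whose groups did not overlap, those with the smallest p after Ap1s1 and Slc15a2 were small on the higher side. H2afz, which encodes the histone variant H2A.Z, was at 88.2, 121 and 102 CPM with deletion and 56.4 and 67.5 CPM without (log2 change 0.74, SE 0.19). Trappc2, a subunit of a vesicle-tethering complex, was at 9.68, 10.1 and 11.0 CPM with deletion and 6.83 and 6.71 CPM without (log2 change 0.60, SE 0.15). Wild type had 9.63, 9.17 and 10.35 CPM of Trappc2. The cold-inducible RNA-binding gene Rbm3 had 170, 178 and 129 CPM with deletion and 120 and 98.7 CPM without. In Ripk3-/- and Mlkl-/- in turn, log2 changes were 0.26 and 0.16 for H2afz, 0.03 and 0.03 for Trappc2 and 0.33 and 0.08 for Rbm3. These genes, and the others of the same rank, did not pass (edgeR adjusted p = 0.846 for each). The others had log2 changes from 0.32 to 0.82. They were Med27 of the Mediator complex, the proteasome subunit Psmd14, the coenzyme A synthase Coasy, the phosphatase regulator Cnep1r1, the nucleotide-sugar transporter gene Slc35b1, the mitochondrial GTPase Eral1, the RNA cyclase Rtca, the Fanconi anaemia gene Fancg and the AAA ATPase Atad1. In Ripk3-/- and Mlkl-/- they changed by -0.19 and 0.13 (Med27), 0.15 and 0.38 (Psmd14), 0.09 and 0.06 (Coasy) and 0.01 and 0.06 (Cnep1r1). Slc35b1 changed by 0.07 and -0.08, Eral1 by -0.11 and 0.23, Rtca by 0.29 and 0.12, Fancg by 0.28 and 0.42 and Atad1 by 0.05 and -0.02. For Med27, Coasy, Cnep1r1, Slc35b1 and Rtca both control libraries lay below all 19 assigned libraries outside the comparison. That did not hold for H2afz, Trappc2, Rbm3, Psmd14, Eral1, Fancg and Atad1.

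On the lower side after Ptpn6 and Sh2b2, Abhd15, an abhydrolase-domain gene, was at 25.3, 25.4 and 25.5 CPM in the deleted libraries and at 45.0 and 43.6 CPM in the control libraries. The libraries of each group lay close together and far from the other group (log2 change -0.80, SE 0.20). Its log2 change was -0.72 in Ripk3-/- and -0.84 in Mlkl-/-, and the library with conflicting labels lay between the groups at 35.0 CPM. Slc16a14, a monocarboxylate transporter family gene, had 7.03, 7.28 and 8.43 CPM with deletion and 14.3 and 12.6 CPM without. Its log2 changes were -0.83 here, -0.66 in Ripk3-/- and -0.65 in Mlkl-/-. Zbtb39, a zinc-finger gene, was at 66.1, 64.1 and 76.9 CPM with deletion and 98.4 and 98.1 CPM without. Eif2ak3, which encodes the endoplasmic reticulum stress kinase PERK, was at 137, 119 and 113 CPM with deletion and 166 and 165 CPM without. Wild type, with Ptpn6, Ripk3 and Mlkl intact, had 24.6 to 34.2 CPM of Abhd15 and 7.63 to 9.93 CPM of Slc16a14. It had 56.5 to 61.0 CPM of Zbtb39 and 109 to 122 CPM of Eif2ak3. For each of these genes every wild type library lay below both control libraries. These and the rest of the rank had an edgeR adjusted p of 0.846. The rest included the phagocytic receptor kinase Mertk, which reached 5 CPM through control replicate 3 alone, and the autophagy gene Gabarapl1. The others were the transcriptional regulators Cir1, Tgif2 and Nsmf, the ubiquitin ligase March8, the NAD kinase Nadk2 and Card6. Log2 changes of the rest ran from -1.47 to -0.36. In Ripk3-/- and Mlkl-/- in turn, log2 changes were -0.50 and -0.29 for Zbtb39 and -0.31 and -0.27 for Eif2ak3. They were -0.24 and -0.35 for Mertk, -0.18 and -0.35 for Nsmf and 0.11 and -0.64 for Tgif2. For Gabarapl1 they were 0.09 and 0.33, for Cir1 -0.05 and 0.08 and for March8 -0.22 and 0.36. For Nadk2 they were -0.12 and 0.06 and for Card6 -0.19 and 0.20.

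The genes that leaned one way here were set against the effect of the same deletion in Ripk3-/- and in Mlkl-/- neutrophils, where no library is shared. Taken without Ptpn6, Ap1s1 and Sh2b2, 295 genes of at least 5 CPM had an unadjusted p under 0.05 and lay lower here. Of these, 255 (86.4%) also lay below 0 in Ripk3-/-, against 56% of all genes that lay below 0 here. Of 206 such higher genes, 151 (73.3%) lay above 0 in Ripk3-/-, against 55.9%. In Mlkl-/- the shares were 57.3% for lower genes (53.7% of all) and 63.6% for higher genes (45.5% of all). The shares over all genes had no limit on CPM, so they are not matched to these genes for level. Across all genes the Pearson r of the log2 changes was 0.0281 with Ripk3-/- and 0.163 with Mlkl-/-, and genes are not independent replicates. The median log2 change of the 295 genes was -0.45 here and -0.18 in Ripk3-/-.

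Genes with large log2 changes in the single knockouts with the deletion, chosen from earlier results of these data, were followed here. That choice by itself favours a larger change there than here, so the differences given for these genes are descriptions. Lipg, endothelial lipase, was at 6.37, 15.6 and 17.3 CPM with deletion and 3.95 and 5.23 CPM without. All deleted libraries lay above the control libraries, replicate 1 only just (log2 change 1.51, SE 0.86, edgeR adjusted p = 0.846). The log2 change was 3.21 in Ripk3-/- and 5.66 in Mlkl-/-. In Ripk3-/-, Lipg was at 4.05, 115 and 27.3 CPM with deletion (replicates 1, 2 and 3) and 4.67, 7.82 and 3.25 CPM without. Replicate 1 there lay within its controls. The difference from Mlkl-/- was -4.16 (SE 1.16, edgeR adjusted p = 0.315). The secreted-protein kinase gene Fam20c was at 3.30, 4.46 and 7.80 CPM with deletion and 3.91 and 3.83 CPM without, with overlap. Its log2 change was 0.42 here, 2.66 in Ripk3-/- and 3.77 in Mlkl-/-, and the difference from Mlkl-/- was -3.35 (SE 0.83, edgeR adjusted p = 0.25). In Ripk3-/-, Fam20c was at 3.93, 30.1 and 16.6 CPM with deletion and 3.03, 2.25 and 2.70 CPM without, so replicate 1 rose little. Prok2, a prokineticin made by neutrophils, was at 47.4, 33.5 and 125 CPM with deletion and 33.1 and 29.7 CPM without. Deleted replicate 3 was well above the rest. Wfdc17, of the whey acidic protein family, was at 98.3, 109 and 184 CPM with deletion and 48.9 and 90.3 CPM without (log2 change 0.90, SE 0.61). Its log2 change was 2.79 in Ripk3-/- and 2.53 in Mlkl-/-. With deletion in Ripk3-/-, replicate 1 had 85.5 CPM of Wfdc17, beside 802 and 348 CPM in replicates 2 and 3. Where Casp8 was deleted as well, in the 2 Ripk3-/- Mlkl-/- Casp8∆PMN Ptpn6∆PMN libraries, Wfdc17 stood at 340 and 256 CPM and Lipg at 18.2 and 22.4 CPM.

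Interferon-response genes lay lower with deletion in the double-knockout background. These genes are induced by type I interferon, which acts on them through repeats of GAAA in promoters. Of 39 tested members, 2 lay above 0 and none passed. The median log2 change was -0.47, against 0.03 over all genes. At an unadjusted p under 0.05, 4 of the 39 lay lower (2.81% of all genes did) and none higher (2.31%). Beside the median here, that of the same genes was -0.04 in Ripk3-/- (16 of 39 above 0) and 0.93 in Mlkl-/- (38 of 39).

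The upstream sequence of 3 members with matches to the motif is shown because these genes lay on the same side of 0 together and repeats of GAAA are the element through which interferon acts on them. The motif GAAANNGAAA was searched on both strands in the 250 bases before each gene's start (RefSeq, GRCm38.p6), and capitals mark matches, which may overlap. It was present in 14 of the 29 interferon-response genes with a sequence (48.3%) and in 393 of 11754 tested genes with one (3.34%). A match is a description of the sequence and not a bound site.
Rsad2 upstream of its start, chr12:26456453-26456702, minus strand: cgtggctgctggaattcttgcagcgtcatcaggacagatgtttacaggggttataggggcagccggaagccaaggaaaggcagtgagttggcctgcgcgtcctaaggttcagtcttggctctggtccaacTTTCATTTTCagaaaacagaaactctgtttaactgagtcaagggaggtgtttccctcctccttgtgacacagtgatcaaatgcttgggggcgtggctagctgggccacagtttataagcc
Ifit3 upstream of its start, chr19:34583279-34583528, plus strand: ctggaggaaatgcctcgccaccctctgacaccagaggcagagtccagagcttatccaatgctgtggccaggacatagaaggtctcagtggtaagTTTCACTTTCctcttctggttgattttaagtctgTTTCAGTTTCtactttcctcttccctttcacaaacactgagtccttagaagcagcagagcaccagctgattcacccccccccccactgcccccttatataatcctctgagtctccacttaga
Isg15 upstream of its start, chr4:156200819-156201068, minus strand: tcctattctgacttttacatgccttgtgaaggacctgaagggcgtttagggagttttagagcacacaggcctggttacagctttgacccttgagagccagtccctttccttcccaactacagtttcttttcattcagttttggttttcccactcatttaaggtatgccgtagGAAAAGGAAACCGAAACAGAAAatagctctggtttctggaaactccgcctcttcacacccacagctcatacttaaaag

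Rsad2, the antiviral enzyme viperin, with 1 match, was at 154, 149 and 300 CPM with deletion and 463 and 294 CPM without. Deleted replicate 3 lay within the control range and replicates 1 and 2 well below it (log2 change -0.91, SE 0.35). Ifit3, with 2 matches, encodes an RNA-binding antiviral protein and was at 32.7, 45.4 and 101 CPM with deletion and 188 and 59.4 CPM without (log2 change -1.05, SE 0.51). Isg15, a ubiquitin-like modifier with 3 matches, was at 16.5, 17.9 and 34.7 CPM with deletion and 50.8 and 26.5 CPM without. In each of the 3, control replicate 2 was the highest library and deleted replicate 3 overlapped the controls. The exonuclease Isg20 was at 35.9, 28.9 and 56.1 CPM with deletion and 59.3 and 61.4 CPM without, with no overlap (log2 change -0.58, SE 0.22). Parp14, an ADP-ribosyltransferase, had a log2 change of -0.50 (SE 0.19) and the DNA sensor family gene Ifi204 one of -0.71 (SE 0.29). Oasl2, an oligoadenylate synthetase-like gene, was at 315, 398 and 741 CPM with deletion and 822 and 519 CPM without.

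By library, the list's mean level was 5.16, 5.31 and 6.01 log2 CPM with deletion and 6.35 and 5.64 without, and 6.00 in the library with conflicting labels. Deleted replicates 1 and 2 were the lowest, and the groups overlapped through deleted replicate 3. The median log2 change was -0.05, with 13 of 39 above 0, without control replicate 2. It was -0.78, with 31 genes lower at an unadjusted p under 0.05, without deleted replicate 3. The library with conflicting labels, placed with the controls by its title, left it at -0.43.

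**Figure D3:**
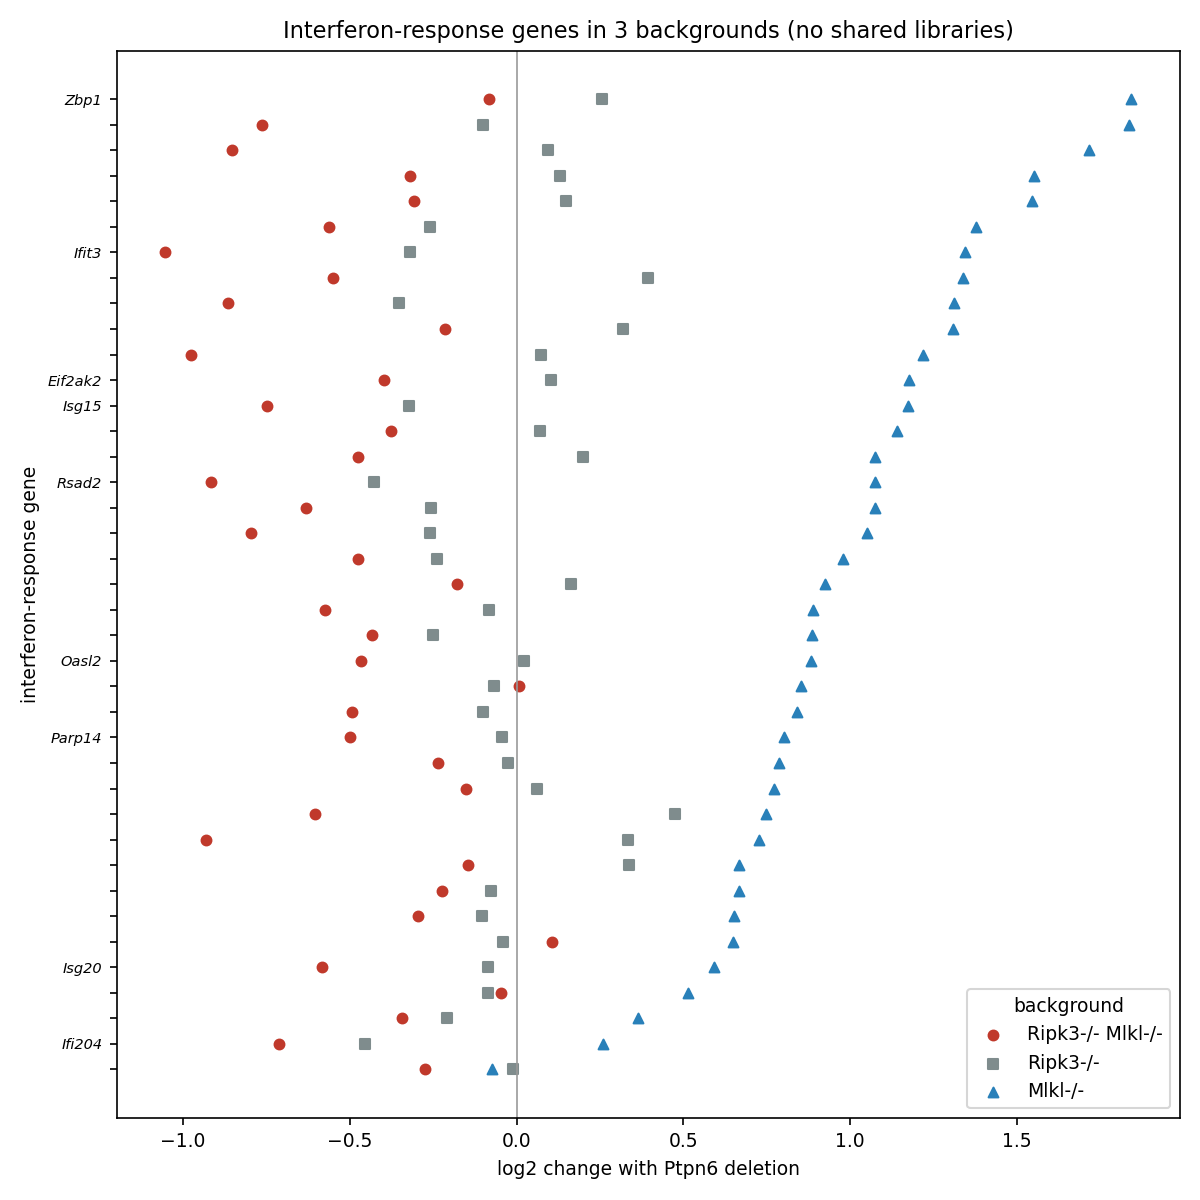
Log2 change with Ptpn6 deletion of each of the 39 interferon-response genes (vertical axis, 1 row per gene, with names for those given values in the text) in the Ripk3-/- Mlkl-/- (red circles), Ripk3-/- (grey squares) and Mlkl-/- (blue triangles) backgrounds. The circles lie mostly left of 0 (median -0.47), the squares around 0 (-0.04) and the triangles to the right (0.93), with 2, 16 and 38 genes above 0.

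The effect of the deletion was next compared between backgrounds gene by gene, as the log2 change without Ripk3 and Mlkl minus that in Mlkl-/-. No gene passed (0 of 16206 by edgeR), while 1761 (10.9%) had an unadjusted p under 0.05 and DESeq2 called 60, of which 50 had a negative difference. Of the 39 interferon-response genes, all had a negative difference, with a median of -1.46 beside 0.07 over all genes, and 35 were under 0.05 (5.14% of all genes were, on that side). DESeq2 called 14 of the 39. Without deleted replicate 3 edgeR called 557 genes (3.44%), 30 of the 39 interferon-response genes among them, and the interferon median was -1.79. That median shrank to -0.995 without control replicate 2 and to -1.15 without replicate 2 of Mlkl-/- Ptpn6∆PMN. Eif2ak2, the double-stranded RNA kinase PKR, was at 38.7, 34.7 and 61.3 CPM with deletion and 70.1 and 48.3 CPM without. Its log2 change was -0.40 here and 1.18 in Mlkl-/-, a difference of -1.58 (SE 0.31, edgeR adjusted p = 0.185). Parp14 differed by -1.30 (SE 0.27).

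Outside the interferon list, the smallest p belonged to Cnnm2, a gene of magnesium transport, at 8.37, 3.43 and 10.2 CPM with deletion and 9.86 and 11.9 CPM without. In Mlkl-/- it rose from 6.28 ± 2.79 (SD, n = 3) to 27.9 ± 5.91 (n = 2) CPM, one of the 1.51% of genes called there (edgeR adjusted p = 0.0236), and the difference was -2.72 (SE 0.53, edgeR adjusted p = 0.185). Cirbp, a cold-inducible RNA-binding gene, went the other way, with a log2 change of 0.32 here and -0.88 in Mlkl-/-. Trak2, an adaptor of mitochondrial transport, and Wdr7, a vesicle acidification factor, had differences of -1.01 and -0.79. Against Ripk3-/-, 0 genes passed by edgeR and by DESeq2, and 457 (2.82%) had an unadjusted p under 0.05. Of the 39 interferon-response genes, 36 had a negative difference from Ripk3-/-, with a median of -0.45, and 2 of them were under 0.05 (1.65% of all genes were, on that side). That median was 0.04, with 20 of 39 above 0, without control replicate 2, and -0.79, with 18 under 0.05, without deleted replicate 3. The collagen prolyl hydroxylase P4ha1 led with a difference of -1.08 (SE 0.27, edgeR adjusted p = 0.998), followed by Slc15a2 with 5.24 (SE 1.38) and the glycerate kinase gene Glyctk with 0.95 (SE 0.26). Daam1, a regulator of actin assembly, differed by -0.79 (SE 0.22) and the tetraspanin Cd81 by 0.73 (SE 0.21). Without control replicate 3 edgeR called 7 genes in that difference.

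For this list and those below, 54.1% of all genes lay above 0. Among the 40 tyrosine kinases, phosphatases and adaptors near SHP-1, 11 lay above 0 and the median log2 change was -0.09. At an unadjusted p under 0.05, 5 lay lower, with 2.81% of all genes on that side, and none higher. Ptpn6 itself and Sh2b2 are 2 of the 5. Tec, a Tec-family kinase, was at 30.3, 29.5 and 30.1 CPM with deletion and 38.9 and 39.4 CPM without. Its groups were tight and separate (log2 change -0.39, SE 0.13), its log2 change was -0.60 in Ripk3-/- and -0.44 in Mlkl-/-, and the library with conflicting labels had 40.1 CPM. The docking protein Gab2 was at 54.1, 61.4 and 69.4 CPM with deletion and 81.0 and 87.4 CPM without (log2 change -0.45, SE 0.18). Jak1 had a log2 change of -0.32 (SE 0.14). The Src-family kinases Lyn (-0.15) and Fgr (-0.08), the kinase Syk (-0.07), the related phosphatase Ptpn11 (0.09) and the lipid phosphatase Inpp5d (-0.04) had small log2 changes. Of 22 ITIM receptors that can bind SHP-1, 9 lay above 0 with a median of -0.03, which was 0.05 without deleted replicate 1. Cd300a was the 1 member under 0.05, at 148, 117 and 158 CPM with deletion and 225 and 170 CPM without (log2 change -0.48, SE 0.20).

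Cytokine receptors and their regulators had 14 of 30 above 0 and a median log2 change of -0.02, which was 0.03 without control replicate 2. Il6ra, the interleukin-6 receptor, was at 121, 142 and 138 CPM with deletion and 216 and 165 CPM without (log2 change -0.51, SE 0.19). Csf1r (-0.36, SE 0.16) and Stat6 (-0.28, SE 0.13) were the other members under 0.05, both lower, where 2.81% of all genes were. The granulocyte colony-stimulating factor receptor Csf3r had a log2 change of -0.30 (SE 0.22). In the TNF and NF-kB list, 11 of 29 lay above 0 (54.1% of all genes did). In it 2 members, both TNF receptors, were under 0.05 and lower, as were 2.81% of all genes. Tnfrsf1a was at 325, 364 and 444 CPM with deletion and 517 and 463 CPM without, and Tnfrsf1b at 176, 162 and 166 CPM with deletion and 249 and 174 CPM without. Tnfrsf1a lies within 1 Mb of Ptpn6.

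The necroptosis and caspase-8 complex list had 3 of 18 above 0 and a median log2 change of -0.06, with none under 0.05. Ripk1, the kinase upstream of both branches, was at 54.1, 59.9 and 73.8 CPM with deletion and 81.7 and 67.4 CPM without (log2 change -0.25, SE 0.14). The caspase-8 inhibitor Cflar had a log2 change of -0.06 and the adaptor Fadd one of 0.29. Zbp1, a nucleic-acid sensor of the pathway, was at 25.6, 38.1 and 79.4 CPM with deletion and 63.6 and 37.4 CPM without. Its log2 change was -0.08 here and 1.84 in Mlkl-/-. Of 15 BCL2 family genes, 1 was under 0.05 (2.81% of all genes were, on the lower side). It was Bbc3, which encodes the pro-apoptotic protein PUMA, at 11.5, 14.4 and 13.5 CPM with deletion and 19.7 and 21.1 CPM without (log2 change -0.63, SE 0.22). Within the interleukin-1 and inflammasome list 8 of 26 lay above 0, and Nlrp3 had a log2 change of -0.33 (SE 0.20).

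Specific-granule genes, which neutrophil precursors make at the myelocyte stage, had 15 of 17 above 0 and a median log2 change of 0.25, with none under 0.05. Camp, the cathelicidin gene, was at 1275, 2424 and 2950 CPM with deletion and 1826 and 976 CPM without, and the groups overlapped. Lactoferrin, Ltf, was at 4622, 7995 and 10148 CPM with deletion and 6960 and 3639 CPM without. Deleted replicate 3 was the highest library for both. The list's median was 0.01 without control replicate 3, 0.000558 without deleted replicate 3 and -0.07 with a covariate of erythroid marker level. Azurophil granule genes had 7 of 14 above 0 and a median of 0.00199, and phagocyte NADPH oxidase genes 5 of 9 and 0.00204. The azurophil median was 0.40 (11 of 14 above 0) without control replicate 2 and -0.14 (4 of 14) without control replicate 3, and that of oxidase genes ran from -0.20 (without deleted replicate 3) to 0.135 (without control replicate 2). Glycolysis and hypoxia genes had 8 of 26 above 0 with a median of -0.05 here, beside 0.19 (24 of 26) in Ripk3-/- and 0.57 (22 of 26) in Mlkl-/-. The median here turned with the control library, at 0.15 (20 of 26 above 0) without control replicate 2 and -0.21 (2 of 26) without control replicate 3.

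Chemokine genes had 8 of 14 above 0. Cxcl2, a ligand of the neutrophil receptor Cxcr2, was at 1.61, 1.31 and 28.9 CPM with deletion and 1.58 and 0.892 CPM without, and its log2 change of 3.09 (SE 1.17) was 0.25 without deleted replicate 3. Among chemoattractant receptors, 4 of 17 lay above 0. The platelet-activating factor receptor Ptafr was at 195, 147 and 225 CPM with deletion and 258 and 232 CPM without (log2 change -0.38, SE 0.17). Cxcr2 had a log2 change of -0.41 (SE 0.26). Among 18 Toll-like receptor genes 9 lay above 0. Tlr8 was under 0.05 with a log2 change of -0.46 (SE 0.19), where 2.81% of all genes were under 0.05 and lower.

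Cell cycle genes lay higher in 28 of 30 (54.1% of all genes did), with a median log2 change of 0.56. In the list 1 gene was under 0.05 and higher, as were 2.31% of all genes. Ccnb2, a mitotic cyclin, was at 30.1, 31.7 and 14.2 CPM with deletion and 16.9 and 10.9 CPM without (log2 change 0.87, SE 0.38). Top2a, a topoisomerase of replicating cells, was at 167, 152 and 50.7 CPM with deletion and 72.8 and 54.4 CPM without. Deleted replicates 1 and 2 were high and replicate 3 was the lowest of the 5. The list mean was 5.09, 5.05 and 3.58 log2 CPM with deletion and 4.42 and 3.96 without. B cell markers followed the same order of deleted libraries, at 6.62, 6.09 and 4.22 log2 CPM with deletion and 5.12 and 5.52 without, with 14 of 14 above 0 and a median of 0.57. Neither list had a member whose groups did not overlap. With a covariate of macrophage marker level, added after the data were seen, the cell cycle median was -0.01, and with a replicate block the B cell median was -0.16. Without deleted replicate 1 the B cell median was 0.05. The part of B-lineage cells in the cell cycle values was not tested.

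Markers of other marrow cells differed between the groups as well. Erythroid markers lay lower in all 17 tested, with a median log2 change of -1.19, and in 13 of them the groups did not overlap (7.63% of all genes did so on the lower side). The list mean was 5.91, 4.99 and 4.49 log2 CPM with deletion and 6.08 and 6.67 without, and the summed level ran from 2526 to 5112 CPM and from 5147 to 10640 CPM. Ermap, an erythroid membrane gene, was at 32.4, 17.2 and 15.6 CPM with deletion and 45.0 and 54.3 CPM without (log2 change -1.19, SE 0.45). Rhag, of the Rhesus complex, was at 11.9, 6.42 and 4.87 CPM with deletion and 15.1 and 25.3 CPM without. The haemoglobin gene Hba-a1 was at 1415, 731 and 787 CPM with deletion and 1651 and 2947 CPM without. Deleted replicate 1 lay nearest the control libraries in each of these. No member passed the adjusted threshold, and the part of erythroid cells in other results was tested only through the covariate fit.

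Marrow macrophage markers lay lower in all 15, with a median log2 change of -1.33 and 11 of the 15 under 0.05 (2.81% of all genes were, on the lower side). The list mean was 2.37, 2.75 and 3.42 log2 CPM with deletion and 2.83 and 4.62 without, so control replicate 3 was far above the rest and the groups overlapped. C1qa, a complement component of tissue macrophages, was at 3.19, 4.50 and 8.19 CPM with deletion and 4.28 and 25.4 CPM without. Cd163 was at 1.92, 1.84 and 3.80 CPM with deletion and 2.65 and 12.4 CPM without. Mertk was at 1.27, 2.29 and 2.10 CPM with deletion and 3.25 and 7.14 CPM without, with no overlap (log2 change -1.47, SE 0.37), and the library with conflicting labels had 2.24 CPM. Without control replicate 3 the list median was 0.15, with 10 of 15 above 0. The same library held most of the collagen. Col1a1 was at 4.07, 6.13 and 6.24 CPM with deletion and 18.2 and 293 CPM without.

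Basophil and mast cell markers lay higher in 9 of 10, with a median log2 change of 0.59, and in 6 of them the groups did not overlap (5.79% of all genes did so on the higher side). Mcpt8, a basophil protease, was at 63.7, 70.0 and 41.7 CPM with deletion and 28.8 and 22.9 CPM without (log2 change 1.18, SE 0.54). Prss34, another basophil protease, was at 175, 216 and 124 CPM with deletion and 105 and 64.0 CPM without. Over the 19 assigned libraries outside the comparison, Mcpt8 had a median of 98.6 CPM (13.5 to 153). Prss34 had a median of 281 CPM there (46.4 to 448). Both medians lay above every compared library. The library with conflicting labels was above every compared library, at 92.1 CPM of Mcpt8 and 270 CPM of Prss34. With that library among the controls by its title, the list median was 0.11. The median was -0.37 in Ripk3-/- and 0.35 in Mlkl-/-. Monocyte markers had 6 of 12 above 0 and T and NK cell markers 8 of 16, with medians of -0.08 and 0.02. Leaving out 1 library moved the monocyte median from -0.93 (without deleted replicate 2) to 0.505 (without control replicate 2). The T and NK cell median moved from -0.305 (without deleted replicate 1) to 0.27, with all 16 above 0 (without control replicate 3).

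**Figure D4:**
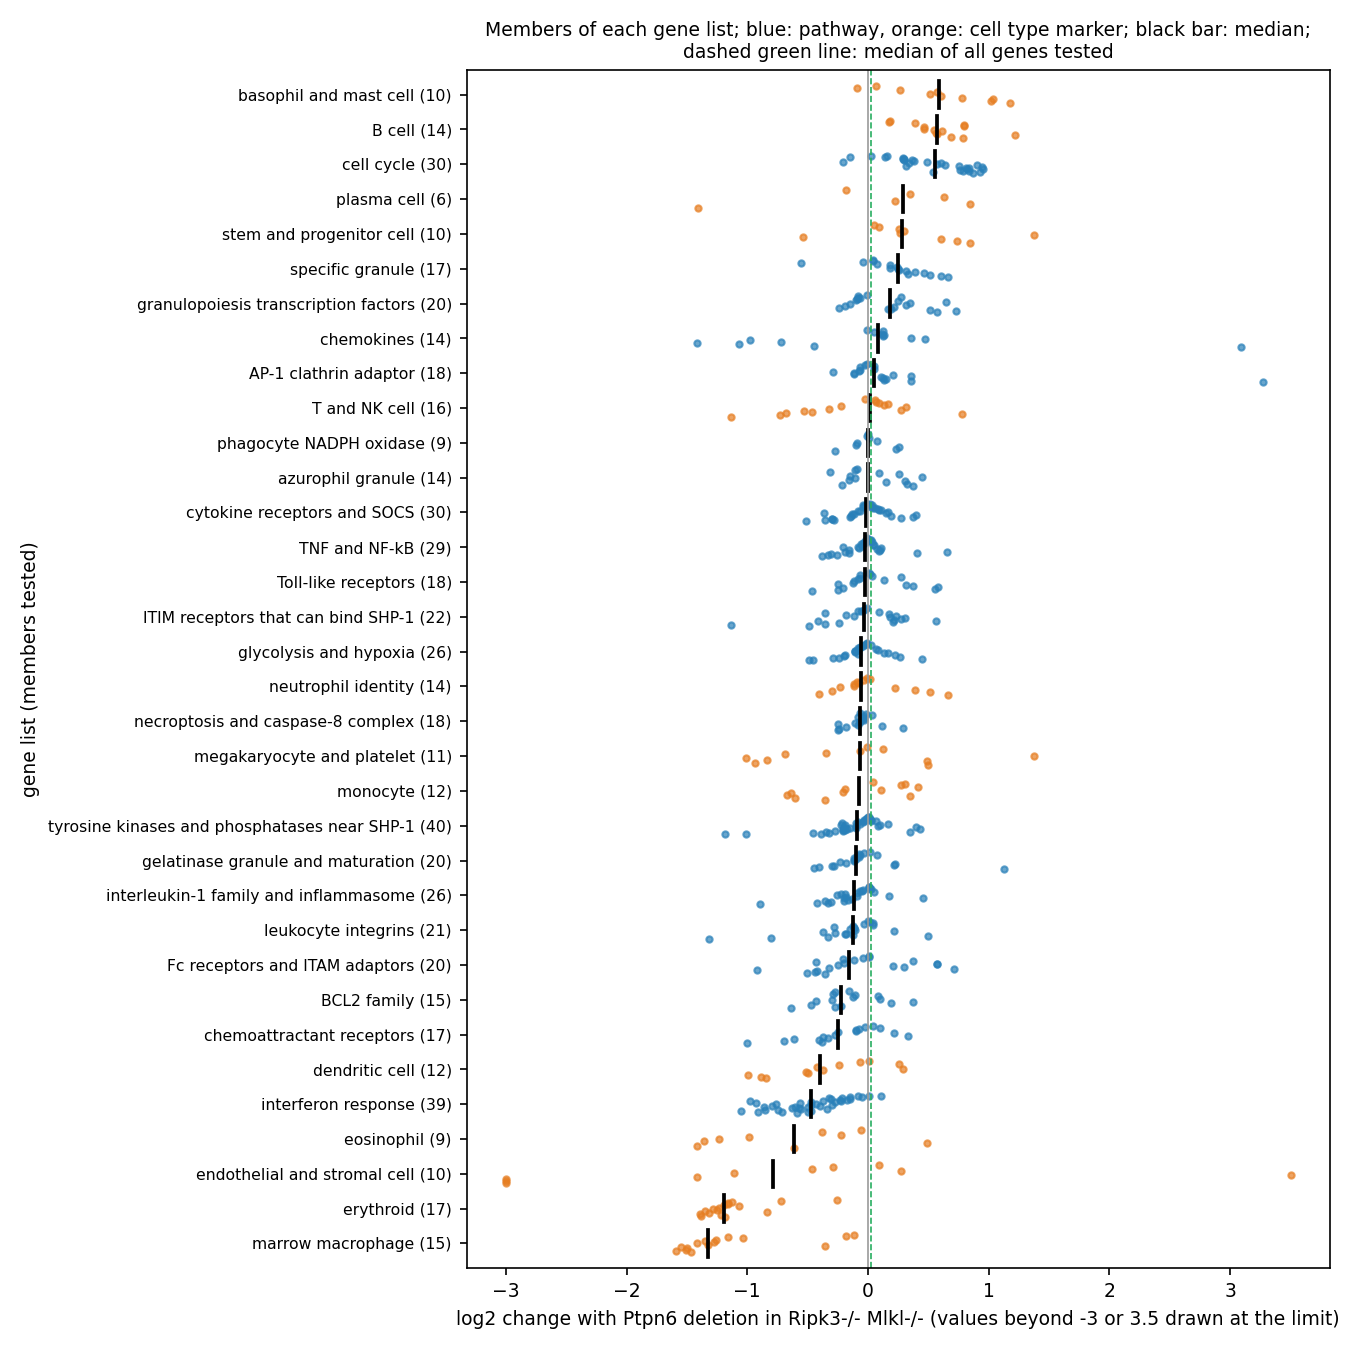
Log2 change of every tested member of the gene lists with Ptpn6 deletion, 1 point per gene (pathway lists blue, cell type markers orange), with the list median as a black bar and the median of all genes as a dashed line. Macrophage (-1.33) and erythroid (-1.19) markers had the lowest medians, and basophil and mast cell markers (0.59), B cell markers (0.57) and cell cycle genes (0.56) the highest.

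**Figure D5:**
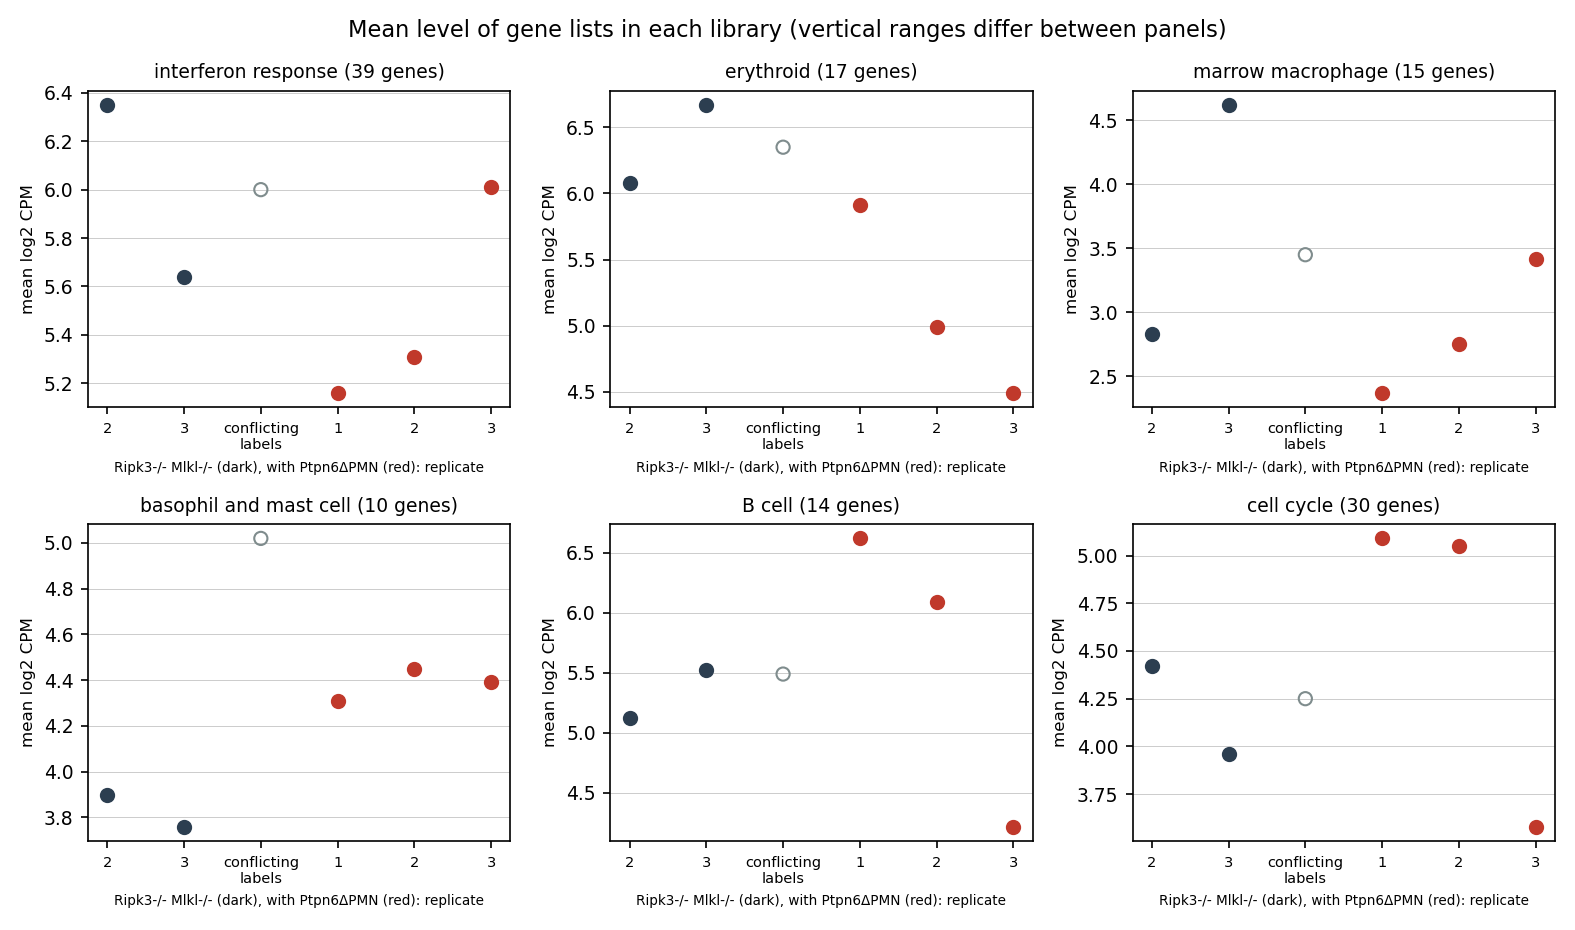
Mean log2 CPM of gene lists (vertical axis) in each of the 5 compared libraries and, as an open circle, the library with conflicting labels. Erythroid markers lay at 5.91, 4.99 and 4.49 with deletion and 6.08 and 6.67 without, and macrophage markers at 4.62 in control replicate 3 against 2.83 in control replicate 2.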

How the data were processed

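Messenger RNA libraries (100 bp paired reads) came from neutrophils taken at the interface of 68% and 78% Percoll, per the labels' protocols. Estimated counts, as deposited by the authors, covered 35741 gene symbols in 25 libraries. The submitters' processing notes name Salmon 0.14.1, DESeq2 and the GRCm38.p6 build. The step from transcripts to genes is not given in the sources used here. Every column was matched to a sample. Values were rounded to integers before testing, and library totals lay between 21598177 and 23187676. Coordinates came from RefSeq, in which 95.7% of the tested symbols were found. Copies of a gene with near-identical sequence, overlapping genes and antisense genes may share reads.

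The 23 libraries of the 9 groups with at least 2 libraries entered a single model (R 4.3.3, edgeR 4.0.16). Low genes were dropped by filterByExpr at its minimum count of 10 and total of 15, TMM gave the scaling, and quasi-likelihood F tests gave p-values. This left 16206 genes and 14 residual degrees of freedom. A call was an adjusted p (Benjamini-Hochberg, over all genes) below 0.05. CPM used effective library sizes, with a prior count of 0.5 for list means. Differences between backgrounds were contrasts of the same fit. The rule for named genes took the 14 higher and 14 lower genes with the smallest p at 5 CPM or more and no overlap. It added up to 4 members per list by p, the most abundant member, and genes called in another setting. A few genes the rule covers are not reported here. Subunits and relatives given for their role, Ifit3, Isg15, Col1a1 and the genes of large response in other backgrounds were picked after their values were seen. The comparison, its members and the 34 gene lists (21 of pathways, 13 of markers) were chosen with earlier results of these data known, so counts over them are descriptions. Whether replicate numbers pair the libraries is not known. Deviations from group means correlated at 0.0791 for number 2 and -0.0153 for number 3. With only 2 control libraries, their deviations mirror each other, so these values cannot decide on pairing.

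Alternatives were DESeq2's size factors, no filter on low counts, DESeq2 1.42.0, a model of the 5 compared libraries alone, the replicate number as a block, an erythroid marker covariate, the library with conflicting labels placed by its title, and leaving out each library. A macrophage marker covariate was added after the data were seen. On simulated data, the procedure returned the direction and median size of changes placed in genes above a minimum mean count. That check did not require the changes to pass the threshold, so it does not show how many would be called. Figures were drawn with matplotlib 3.10.9.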

Additional observations from a re-analysis of the deposited data

How the results depend on the processing

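The rise of Ap1s1 was called in every setting, with log2 changes from 2.98 (erythroid covariate) to 3.42 (without control replicate 2, and without deleted replicate 1). The count of called genes was 1 in the reported fit, 3 without a filter on low counts (Ap1s1, Ptpn6, Slc15a2), 4 with DESeq2 (those and Sh2b2) and 2 with the library of conflicting labels placed by its title (Ap1s1, Ptpn6). Leaving out single libraries gave 1 to 18, and 18 came without control replicate 3. Most of those 18 were low in control replicate 2 alone, such as Wdr89 at 0.697 CPM there and 11.1 CPM in control replicate 3. Ptpn6 (edgeR adjusted p = 0.0477) and Sh2b2 (0.0344) were among them. The difference from Ripk3-/- gave 0 to 7 genes when single libraries were left out. The difference from Mlkl-/- gave 0 to 557 so, and 60 with DESeq2. The largest counts came without control replicate 3 (7) and without deleted replicate 3 (557), and the cause was not tested.

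The pairing check could not decide whether replicate numbers pair the libraries. With a replicate block 1 gene was called, and signs turned for Casp8 (-0.0229), Ap1g1 (0.0187), Atn1 (0.0424), Fgr (0.0337), Inpp5d (0.00438) and Zbp1 (0.176), all near 0 in the reported fit. With the erythroid covariate they turned for Fam20c (-0.00247), Ptpn11 (-0.0172) and Hba-a1 (0.147). With the macrophage covariate, added after the data were seen, they turned for Casp8 (-0.0497), Fgr (0.000473), Inpp5d (0.0195) and C1qa (0.0262). By construction a covariate takes up its own markers. Leaving out 1 library turned the sign of further log2 changes. Their ranges were -0.0508 to 0.123 for Casp8, -0.137 to 0.101 for Ap1g1, -0.169 to 0.00519 for Ap1m1, -0.177 to 0.0498 for Cltc and -0.168 to 0.0461 for Atn1. They were -0.317 to 0.0518 for Fgr, -0.0165 to 0.2 for Ptpn11, -0.117 to 0.00846 for Inpp5d, -0.265 to 0.0972 for Cflar and -0.663 to 0.352 for Zbp1. Ifit3 ranged from -1.66 to 0.00603, the latter without control replicate 2, and C1qa from -2.27 to 0.3, the latter without control replicate 3. In all, 707 of 720 log2 changes of 90 named genes kept their sign over 8 settings, and 428 of 450 when 1 library was left out. Many of these genes were named for a small p or for groups without overlap in these same libraries. That choice favours a kept sign, so the shares describe the named genes only.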

Other observations

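The library with conflicting labels belongs to no group by its labels, and its values are given here without an average. It had 582 CPM of Ptpn6, 12.3 CPM of Ap1s1, 26.7 CPM of Sh2b2, 2 counts of Ripk3 and 0.747 CPM of Mlkl. Over Ripk3-/- Mlkl-/- libraries without Ptpn6 deletion these genes spanned 551 to 631 CPM of Ptpn6 and 8.16 to 9.95 CPM of Ap1s1. Mlkl-/- libraries, with or without Ptpn6 deletion, had between 54 and 114 counts of Ripk3. Its list means were 6.00 log2 CPM for interferon-response genes, 6.35 for erythroid, 3.45 for macrophage, 5.49 for B cell and 5.02 for basophil and mast cell markers, the last above all 5 compared libraries.

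Eosinophil markers varied more among replicates than between the groups. Their mean was 1.10, 2.47 and -0.05 log2 CPM in the deleted libraries, 2.91 and -0.19 in the control libraries and 2.49 in the library with conflicting labels. The median log2 change of eosinophil markers was 2.23 without control replicate 2 and -1.35 without control replicate 3. Plasma cell markers had 4 of 6 above 0, with a median log2 change of 0.29. It was 0.95 (6 of 6) without control replicate 3, -0.04 without control replicate 2 and -0.13 without deleted replicate 1. Jchain, the immunoglobulin joining chain, went against it at 10.8, 7.19 and 12.9 CPM with deletion and 5.25 and 49.1 CPM without. The list of Fc receptors and ITAM adaptors had 8 of 20 above 0 with a median of -0.16 and none at an unadjusted p under 0.05. It is a mixed list, which also holds Fcgr2b, counted among the ITIM receptors too, and the cytokine gene Osm. Fcgr3, a low-affinity IgG receptor, was at 506, 528 and 721 CPM with deletion and 800 and 701 CPM without. Leukocyte integrins and their partners had 6 of 21 above 0 with a median of -0.12. Without control replicate 2 both of these medians lay above 0, at 0.03 and 0.02.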
